A study of Mus musculus with 9 samples.

Results

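The 39 rows described here are the Hox genes of the mouse: every row of the deposited table whose symbol is Hox followed by a cluster letter and a number, out of 25965 rows. They comprise 11 Hoxa genes on chromosome 6, 10 Hoxb genes on chromosome 11, 9 Hoxc genes on chromosome 15 and 9 Hoxd genes on chromosome 2. Hox genes encode homeodomain transcription factors that give cells their position along the head-to-tail axis, and the order of the genes in each cluster follows the order of the body regions in which they are used. Genes with the same number in different clusters are paralogs of one ancestral gene. The forebrain normally keeps all 4 clusters silent, and Polycomb proteins with their histone marks are known to hold them in that state. Smchd1 encodes a chromatin protein known for its role on the inactive X chromosome and at several gene clusters, and it has been linked to long-range contacts of the Hox clusters. Chromatin data were not analysed here.

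RNA was sequenced from 9 cultures of neural stem cells, which divide in culture and can form neurons and glia, made from E14.5 embryos of C57BL/6 mice that were homozygous for a floxed Smchd1 allele (Smchd1 fl/fl). The 4 Smchd1 del/del libraries (female lines 1, 2 and 3 and male line 5) came from cells that received a retrovirus with Cre and puromycin resistance (MSCV-Cre-puro), were given puromycin from 24 h and were harvested on day 7 after transduction. The 5 fl/fl libraries (female lines 1, 2 and 3 and male lines 5 and 7) came from the untransduced share of the lines. Loss of Smchd1 therefore cannot be told apart from retrovirus and puromycin, and all cells come from floxed lines. No harvest day is given for the fl/fl libraries, so a difference in time in culture cannot be told apart either. The design text of the series calls the lines female and the controls del/fl, and the sample labels were followed.

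Libraries held 74.0 M to 105.1 M reads (M, 1e+06 reads) in del/del cultures and 24.1 M to 116.6 M in fl/fl cultures, with fl/fl female 2 by far the shallowest. Levels are in reads per M reads of the library (RPM), and 1 read was worth 0.00857 to 0.0415 RPM. Smchd1 itself stood at 41.2, 33.0 and 37.0 RPM in del/del females 1, 2 and 3 and 37.5 RPM in del/del male 5, against 82.4, 112.0 and 71.7 RPM in fl/fl females 1, 2 and 3 and 75.9 and 82.8 RPM in fl/fl males 5 and 7. It fell by 1.19 on the log2 scale (SE 0.148, limma adjusted p = 0.00751), with adjusted p between 9.8e-05 and 0.111 over the alternatives, and the call was lost without del/del male 5 (adjusted p = 0.0930). Of all 14044 rows tested limma called 1.55%, the background for the counts of called genes, and 1382 had an unadjusted p under 0.05. All 12 neural stem cell markers were read in every library, and limma called 0 of them (background 1.55%), with 0 at an unadjusted p under 0.05 (smallest adjusted p = 0.980). Their summed level was 529.7 to 698.5 RPM in del/del cultures and 507.4 to 1090 RPM in fl/fl cultures. Embryonic stem cell markers summed to at most 0.245 RPM in del/del cultures and 0.181 RPM in fl/fl cultures.

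One library stood apart in genes outside the Hox clusters. Among rows with at least 50 reads in the library concerned, the Hox genes left out and the limits chosen after the values were seen, del/del female 2 had 4 genes more than 4-fold above every other library, and each of the other 8 libraries had 0. These were Lox, which cross-links collagen, Bgn, a matrix proteoglycan, and the collagen genes Col1a1 and Col1a2. Col1a1 had 5.77 RPM in del/del female 2, 0.647 to 0.658 RPM in the other del/del libraries and 0.249 to 1.04 RPM in fl/fl libraries. Lox had 3.17 RPM there, 0.162 to 0.203 RPM in the other del/del libraries and 0 to 0.191 RPM in fl/fl libraries. The 8 fibroblast and mesenchymal markers together summed to 166.7 to 212.5 RPM in del/del and 138.9 to 248.4 RPM in fl/fl cultures, with no member at 0 in all libraries. In del/del female 2 the sum was 197.6 RPM. The largest share of that sum was Prrx1, at 97.4 ± 14.1 RPM in del/del and 102 ± 35.6 RPM in fl/fl cultures (SD, n = 4 and 5). A sum carried by such genes cannot show a rise of the size seen in Col1a1. Of its other members, Acta2 (52.6 RPM) and Tagln (21.4 RPM) were also highest in del/del female 2. They reached at most 51.3 and 20.3 RPM elsewhere. Pdgfrb, Thy1, Twist1 and Prrx1 were higher in another library. Mean Hox levels over all genes, by cluster and by paralog range are given with and without del/del female 2. Fits of single Hox genes without it were not run.

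Hox genes were close to unread in both groups. Of 351 gene and library values, 285 (81.2%) were 0 reads, 18 were 1 read, 29 were 2 reads and 12 were over 3 reads. No member reached 1 RPM in any library, and so 0 of 39 entered the comparison of the 14044 rows that passed the filter on low values (1 RPM or more in 3 or more libraries). In bulk RNA, fewer cells with a transcript cannot be told apart from less of it in each cell.

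A gene was counted as silent in a library where its level was under 0.1 RPM. By this measure 37 of 39 Hox genes were silent in every del/del library and 39 of 39 in every fl/fl library. Among the exceptions was Hoxa3, at 0.133 RPM in del/del female 2. All 10 Hoxb, 9 Hoxc and 9 Hoxd genes were silent in all libraries of both groups. Over the whole table, 30.0% of rows were silent in every library. With the threshold at 0.05 RPM, 34 Hox genes were silent in every del/del and 34 in every fl/fl library, and at 0.5 RPM all 39 were in both. At 0.05 RPM 31 were silent in all libraries of both groups. By library, 34 were silent in del/del female 2 and 38 or 39 in the other del/del libraries, against 37 to 39 in fl/fl libraries. In the shallow fl/fl female 2, 2 reads already lie above 0.05 RPM.

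**Figure D1:**
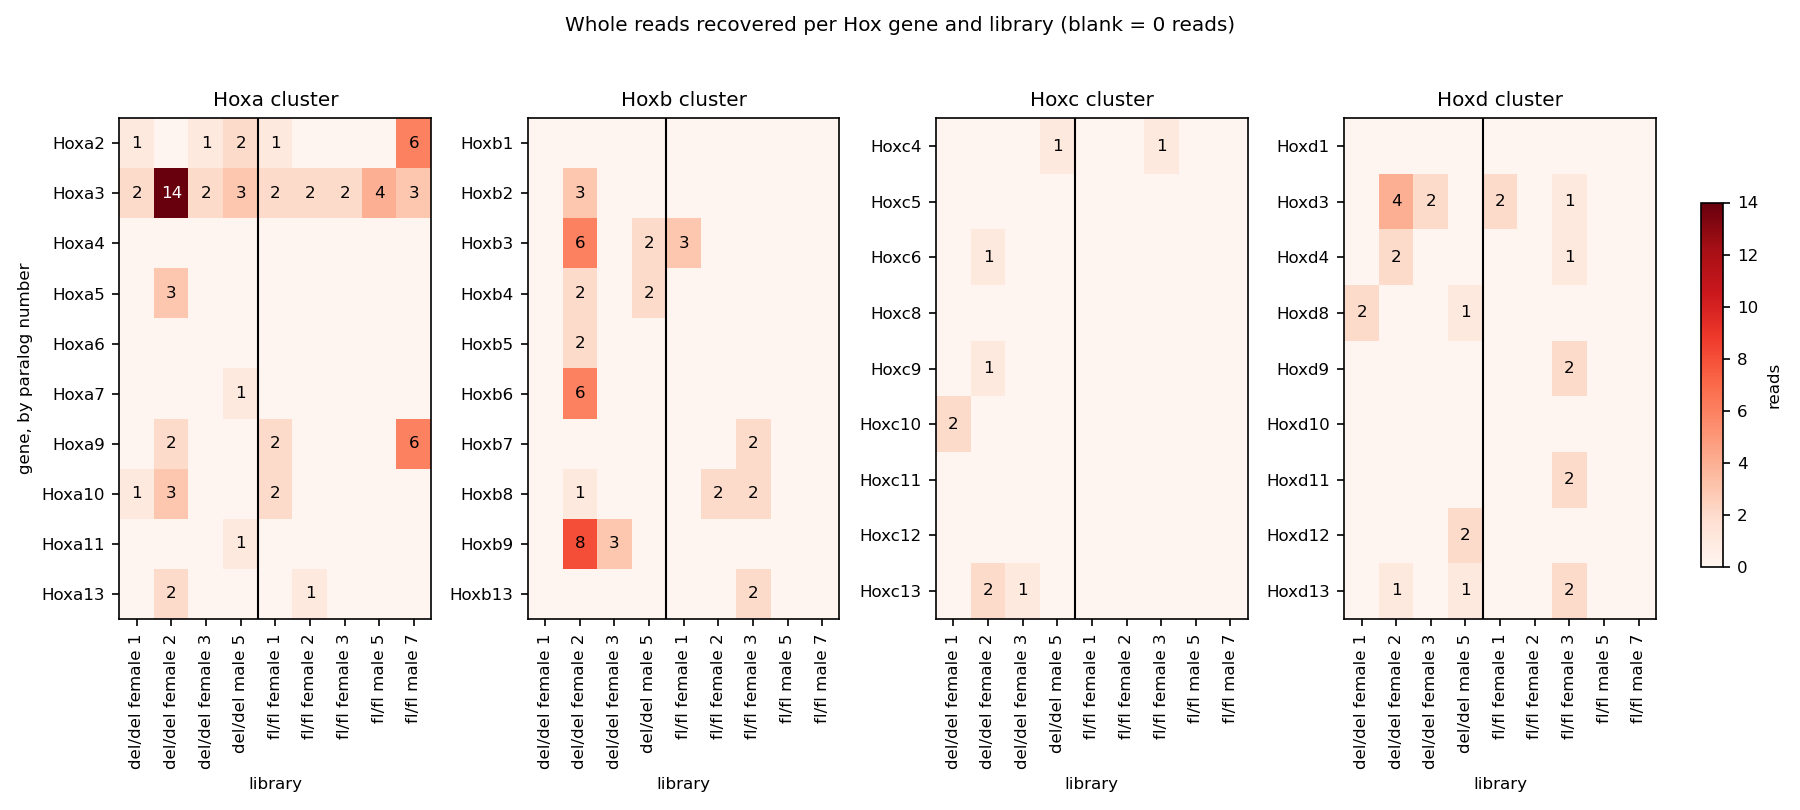
Whole reads recovered for Hox genes (rows, by paralog number) in each library (columns, del/del left of the line and fl/fl right of it), 1 panel per cluster, with blank cells at 0 reads. Hoxa3 has reads in all 9 libraries, most other cells are blank, and the column of del/del female 2 is the fullest.

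The Hoxa cluster held most of the reads, 58 in del/del and 46 in fl/fl libraries, and its anterior end most of those. Hoxa3, which patterns the thymus, parathyroid and neck, was the only member with reads in all 9 libraries. It had 2, 14 and 2 reads in del/del females 1, 2 and 3 and 3 in del/del male 5, against 2, 2 and 2 reads in fl/fl females 1, 2 and 3 and 4 and 3 in fl/fl males 5 and 7. Apart from the 14 reads of del/del female 2, both groups lay between 2 and 4 reads. Depth differs, and the 2 reads of the shallow fl/fl female 2 equal 0.0829 RPM. The other fl/fl libraries lay at 0.0171 to 0.0381 RPM, and the del/del libraries other than female 2 at 0.0202 to 0.0295 RPM. The Hoxa3 row (chr6:52168510-52213336, mm10) spans 44.8 kb and overlaps Hoxa4, Hoxa5, Hoxa6 and 5 rows of noncoding or predicted genes, so reads in shared stretches may stand in several rows. The noncoding row Gm20653, which overlaps it, had 14 reads in del/del female 2 as well, and the strand setting is not given in the sources used here.

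Hoxa2, which patterns the second pharyngeal arch and the hindbrain, had 1, 0 and 1 reads in del/del females and 2 in del/del male 5, against 1, 0 and 0 reads in fl/fl females and 0 and 6 in fl/fl males 5 and 7. Its highest library was thus an fl/fl one. Of the posterior Hoxa genes, Hoxa9, known from blood stem cells, had 2 reads in del/del female 2 only among del/del libraries, against 2 in fl/fl female 1 and 6 in fl/fl male 7. Hoxa5, Hoxa7, Hoxa10, Hoxa11 and Hoxa13 had 1 to 6 reads in all, and Hoxa4 and Hoxa6 had 0 in all libraries.

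In the Hoxb cluster, 35 reads fell in del/del and 11 in fl/fl libraries, and 28 of the 35 came from del/del female 2. Hoxb9, which with its paralogs patterns the thoracic skeleton, had 0, 8 and 3 reads in del/del females and 0 in del/del male 5, against 0 in all 5 fl/fl libraries. Hoxb3, a hindbrain gene, had 6 reads in del/del female 2 and 2 in del/del male 5, against 3 in fl/fl female 1, with 0 elsewhere. Hoxb8, used by spinal cells and by a class of microglial progenitors, had 1 read in del/del female 2, against 2 and 2 reads in fl/fl females 2 and 3. Because fl/fl female 2 is shallow, its 2 reads equal 0.0829 RPM, while the 2 reads of fl/fl female 3 equal 0.0182 RPM. Hoxb6 (6 reads), Hoxb2 (3) and Hoxb5 (2) were read in del/del female 2 alone, and Hoxb7 and Hoxb13 (2 each) in fl/fl female 3 alone. Hoxb4, known from blood stem cells, had 2 reads each in del/del female 2 and del/del male 5 and 0 in fl/fl libraries, and Hoxb1 had 0 in all libraries.

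The Hoxc cluster was the least read, with 8 reads in del/del and 1 in fl/fl libraries. Hoxc13, required for hair, had 2 reads in del/del female 2 and 1 in del/del female 3, against 0 in fl/fl libraries. Hoxc10, a gene of lumbar motor neurons and hindlimb, had 2 reads in del/del female 1 and none elsewhere. Hoxc4 had 1 read in del/del male 5, against 1 in fl/fl female 3. Hoxc6 and Hoxc9 had 1 read each in del/del female 2, and Hoxc5, Hoxc8, Hoxc11 and Hoxc12 had 0 in all libraries. The summed Hoxc level was 0.0270, 0.0380 and 0.0101 RPM in del/del females and 0.00982 RPM in del/del male 5, against 0.00911 RPM in fl/fl female 3 and 0 in the other fl/fl libraries. The groups did not overlap, but del/del female 3, del/del male 5 and fl/fl female 3 had 1 read each.

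In the Hoxd cluster, 15 reads fell in del/del and 10 in fl/fl libraries. Hoxd3, which patterns the neck vertebrae, had 0, 4 and 2 reads in del/del females and 0 in del/del male 5, against 2, 0 and 1 reads in fl/fl females and 0 in both fl/fl males. Hoxd13, the gene of digits and genitalia, had 1 read each in del/del female 2 and del/del male 5, against 2 in fl/fl female 3. Hoxd8 had 2 reads in del/del female 1 and 1 in del/del male 5, against 0 in fl/fl libraries. Hoxd12 (2 reads) was read in del/del male 5 alone, and Hoxd9 and Hoxd11 (2 each) in fl/fl female 3 alone. Hoxd4 had 2 reads in del/del female 2, against 1 in fl/fl female 3, while Hoxd1 and Hoxd10 had 0 in all libraries. Of the 10 fl/fl reads of the cluster, 8 came from fl/fl female 3.

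Over the clusters, 9 Hox genes (23.1%) had 0 reads in all 9 libraries, beside 14.0% of all rows. They were Hoxa4, Hoxa6, Hoxb1, Hoxc5, Hoxc8, Hoxc11, Hoxc12, Hoxd1 and Hoxd10, and they spanned anterior, central and posterior numbers. At a floor of 3 reads, a count of 0 over all del/del libraries allows up to 0.00790 RPM, and over all fl/fl libraries up to 0.00637 RPM. These limits, and the intervals given for sums, cover counting error of independent reads only. Rows with 2 reads outnumbered rows with 1 read in 8 of 9 libraries (882 against 340 in del/del female 1, for example). Whether mates of one fragment were counted as separate reads was not tested. Of the 30 genes with a read, 14 were read only in del/del libraries, 4 only in fl/fl libraries and 12 in both. Without del/del female 2, 8 were read in del/del but not in fl/fl libraries. Over the whole table, rows with 0 reads numbered 5513 to 5587 in del/del females 2 and 3 and male 5, and 6764 in del/del female 1. In fl/fl libraries they numbered 5577 in female 3, 5967 in male 5 and 6611 to 7778 in the others. The same split was not counted over all rows, so it has no background beside it.

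Promoter sequences were taken for read and unread members to show what they share. RefSeq promoters (GRCm38.p6, 250 bases before the start to 50 after it) matched 22 of the 39 genes, with 24 promoters. Shown are Hoxa3, the only member read in every library, and Hoxb1 and Hoxd1, group 1 paralogs with 0 reads in all libraries. Capitals mark CpG pairs, the sites of DNA methylation in mammals, and dense CpG is a known feature of promoters that Polycomb binds. The Hoxa3 promoter lies at chr6:52213018-52213317 on the minus strand, that of Hoxb1 at chr11:96365508-96365807 on the plus strand and that of Hoxd1 at chr2:74762730-74763029 on the plus strand.
Hoxa3: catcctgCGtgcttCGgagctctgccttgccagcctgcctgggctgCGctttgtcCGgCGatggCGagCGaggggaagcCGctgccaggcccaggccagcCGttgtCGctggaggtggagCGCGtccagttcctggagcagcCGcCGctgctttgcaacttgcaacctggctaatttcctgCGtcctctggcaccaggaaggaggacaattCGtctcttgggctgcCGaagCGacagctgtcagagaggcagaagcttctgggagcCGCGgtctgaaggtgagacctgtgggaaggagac
Hoxb1: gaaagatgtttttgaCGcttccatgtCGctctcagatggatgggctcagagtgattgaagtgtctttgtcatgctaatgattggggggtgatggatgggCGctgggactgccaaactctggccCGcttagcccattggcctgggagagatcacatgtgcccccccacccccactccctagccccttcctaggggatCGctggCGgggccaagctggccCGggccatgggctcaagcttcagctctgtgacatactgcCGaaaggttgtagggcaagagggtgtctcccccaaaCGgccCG
Hoxd1: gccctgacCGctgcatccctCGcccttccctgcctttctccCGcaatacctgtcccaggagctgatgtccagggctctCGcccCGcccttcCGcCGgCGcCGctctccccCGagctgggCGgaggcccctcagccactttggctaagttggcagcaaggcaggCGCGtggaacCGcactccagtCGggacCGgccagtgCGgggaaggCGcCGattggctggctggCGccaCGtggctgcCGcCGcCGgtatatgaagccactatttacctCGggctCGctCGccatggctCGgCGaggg
The Hoxa3 stretch holds 20 CpG at 0.657 of the number its base composition gives, the Hoxb1 stretch 10 at 0.380 and the Hoxd1 stretch 29 at 0.805. The unread promoters shown therefore lie on either side of the read one. Over the 24 Hox promoters the median ratio was 0.626, beside 0.384 over all 32851 promoters of the table. The ratio was over 0.6 in 12 of 24 Hox promoters (50%), beside 35.8% of all promoters. Between the members it had a median of 0.779 in the 4 promoters of unread genes and 0.594 in the 20 of genes with a read, with wide overlap (0.380 to 0.923 and 0.257 to 1.02). The letters TAAT, the core that homeodomains bind, searched on both strands, stood in 19 of 24 Hox promoters (79.2%) and in 58.0% of all promoters.

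Summed over all 39 genes, the Hox level was 0.108, 0.723 and 0.0910 RPM in del/del females 1, 2 and 3 and 0.226 RPM in del/del male 5, against 0.120, 0.207 and 0.237 RPM in fl/fl females 1, 2 and 3 and 0.0763 and 0.130 RPM in fl/fl males 5 and 7. Del/del female 2 was above all other libraries, and the other 3 del/del libraries lay within the fl/fl range. The mean was 0.287 ± 0.297 RPM in del/del and 0.154 ± 0.0661 RPM in fl/fl libraries (SD, n = 4 and 5), a ratio of 1.86. Without del/del female 2 the del/del mean was 0.142 RPM and the ratio 0.919. Pooled over libraries, the level was 0.305 RPM in del/del (116 reads, 95% exact Poisson interval 0.252 to 0.366) and 0.144 RPM in fl/fl libraries (68 reads, 0.112 to 0.183). Without del/del female 2 it was 0.146 RPM in del/del libraries (40 reads, 0.104 to 0.198), and the intervals of the groups then overlapped. The members were chosen with results known, so the sums were not tested.

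**Figure D2:**
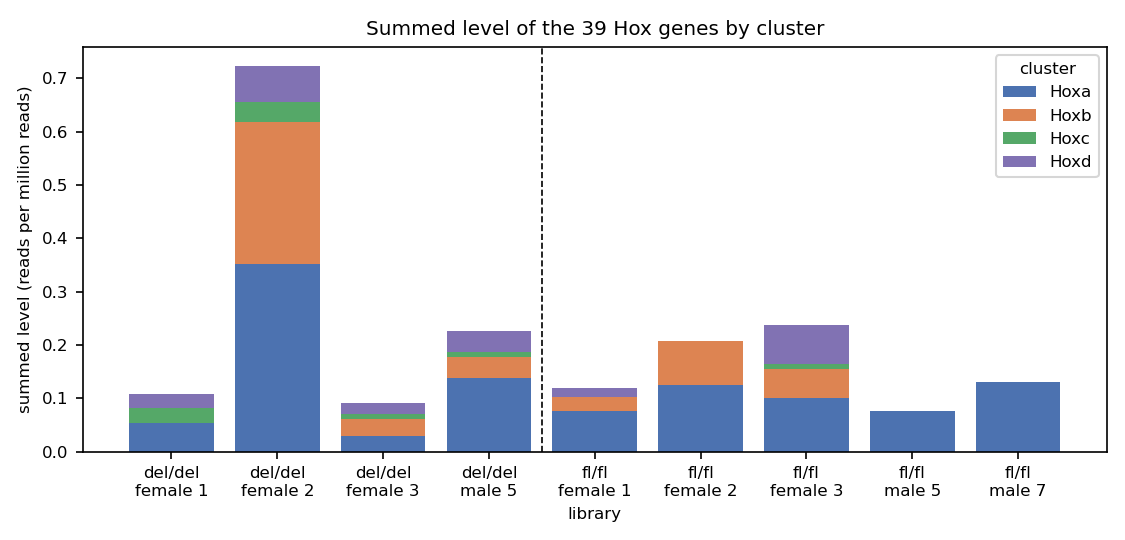
Summed level of the 39 Hox genes in each library (bars, RPM, axis from 0), split by cluster, with del/del libraries left of the line and fl/fl libraries right of it. Del/del female 2 reaches 0.723 RPM and every other library lies between 0.0763 and 0.237 RPM.

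The clusters differed in how far that 1 library carried them. Hoxa averaged 0.143 ± 0.146 RPM in del/del and 0.102 ± 0.0253 RPM in fl/fl libraries (SD, n = 4 and 5, as below), and 0.0739 RPM in del/del libraries without female 2. Hoxb averaged 0.0840 ± 0.123 RPM in del/del and 0.0327 ± 0.0360 RPM in fl/fl libraries, and 0.0232 RPM in del/del libraries without female 2. For both clusters the del/del mean was thus above the fl/fl mean with that library and below it without. Hoxc averaged 0.0212 ± 0.0138 RPM in del/del and 0.00182 ± 0.00408 RPM in fl/fl libraries, and 0.0156 RPM in del/del libraries without female 2. Hoxd averaged 0.0383 ± 0.0205 RPM in del/del and 0.0180 ± 0.0316 RPM in fl/fl libraries, and 0.0288 RPM in del/del libraries without female 2. The ratio of means of Hoxb, del/del over fl/fl, was 2.57 with all members, 1.05 without the members that overlap rows of other genes (Hoxb2 to Hoxb6), and 6.56 without Hoxb8, which overlaps Hoxb7.

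By paralog number, the anterior genes (groups 1 to 4, 12 genes) held 69 reads in del/del and 43 in fl/fl libraries. The central genes (groups 5 to 8, 11 genes) held 17 reads in del/del and 6 in fl/fl libraries, and the posterior genes (groups 9 to 13, 16 genes) 30 in del/del and 19 in fl/fl libraries. The anterior genes averaged 0.169 ± 0.176 RPM in del/del and 0.0901 ± 0.0213 RPM in fl/fl libraries. The posterior genes averaged 0.0752 ± 0.0703 RPM in del/del and 0.0401 ± 0.0267 RPM in fl/fl libraries. The central genes averaged 0.0426 ± 0.0552 RPM in del/del and 0.0239 ± 0.0366 RPM in fl/fl libraries. Without del/del female 2, the del/del means were 0.0860 RPM for anterior, 0.0156 RPM for central and 0.0401 RPM for posterior genes. The central genes then had 4 del/del reads. Groups 5 and 6 had 12 reads in del/del libraries, all in female 2, and 0 in fl/fl libraries.

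Del/del female 2 carried 76 of the 116 del/del Hox reads, had the highest level of all libraries for 14 Hox genes and was the only library with a read for 6. The shares of all rows that do the same were not counted. Del/del female 2 is also the library in which Lox, Bgn, Col1a1 and Col1a2 stood apart. The part of those genes, or of cells that express them, in the Hox reads was not tested. Sample descriptions begin with RNA- for 6 libraries and not for del/del female 1, fl/fl female 1 and fl/fl male 7. Among the 6, the summed Hox level was 0.723, 0.0910 and 0.226 RPM in del/del libraries, against 0.207, 0.237 and 0.0763 RPM in fl/fl libraries. Among the other 3 it was 0.108 RPM in the del/del library, against 0.120 and 0.130 RPM in fl/fl libraries.

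**Figure D3:**
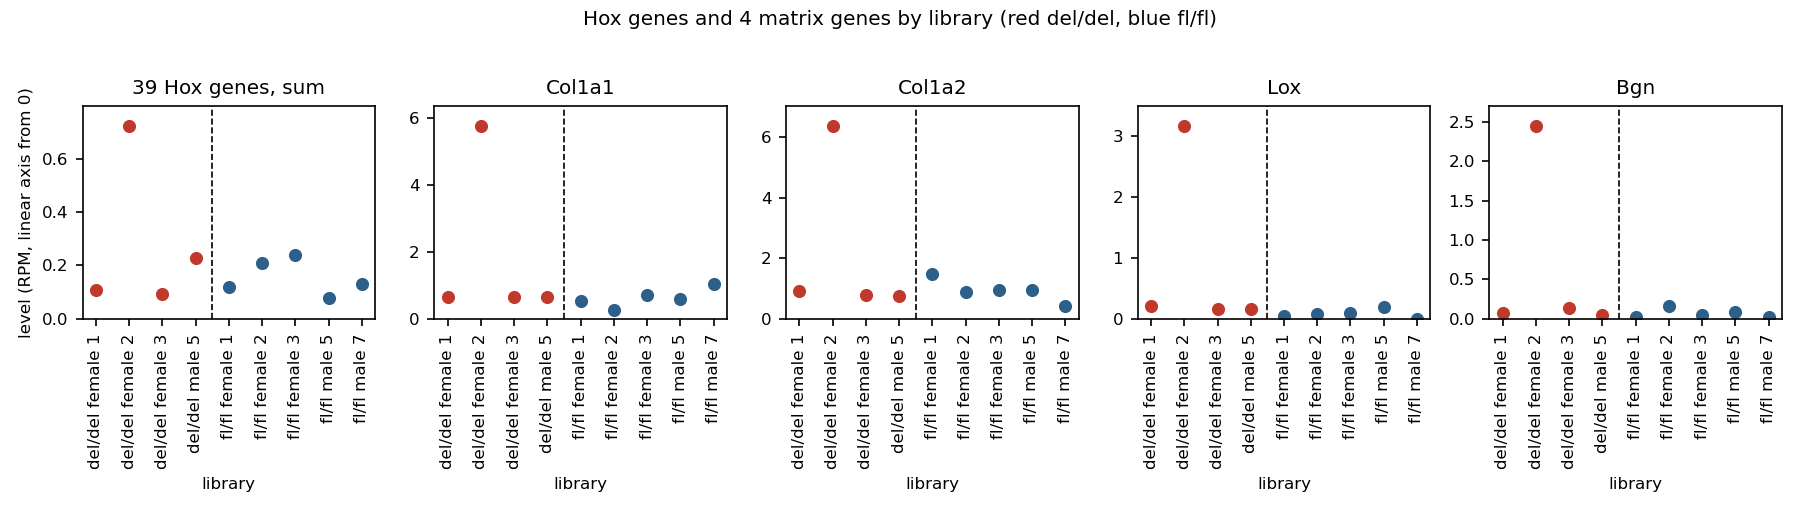
Summed Hox level and the levels of Col1a1, Col1a2, Lox and Bgn in each library (points, RPM, linear axes from 0), with del/del in red left of the line and fl/fl in blue right of it. Del/del female 2 is the highest point in all 5 panels, at 0.723 RPM for Hox genes and 5.77 RPM for Col1a1.

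Tests of single Hox genes were possible only with the filter dropped, over the 22321 rows with a read. On the deposited log2 values limma called 1.23% of those rows and 0 of 30 Hox genes at an adjusted p under 0.05, with 0 at an unadjusted p under 0.05 and a smallest adjusted p of 0.996. On log2(RPM + 0.1), where a count of 0 has the same value in every library, it called 1.23% of rows and 0 Hox genes, with 0 at an unadjusted p under 0.05. With limma's voom on recovered reads it called 1.42% of rows and 0 Hox genes, again with 0 at an unadjusted p under 0.05. The gene with the smallest p was Hoxb9, at a log2 fold change of 0.28 (SE 0.154, limma adjusted p = 0.675) on log2(RPM + 0.1), a scale that understates changes of low genes, and 1.51 (SE 0.887, adjusted p = 0.755) with voom. For Hoxa3, voom gave 0.45 (SE 0.665, adjusted p = 0.937). SEs of this size leave room for large fold changes at these depths, and all of these fits include del/del female 2. In females alone limma called 0.0134% of rows and in males alone and for the difference of the sexes 0%, with 0 Hox genes in each and 0 at an unadjusted p under 0.05. No Hox gene had del/del and fl/fl values that did not overlap, beside 5.76% of all rows with a read.

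Within the 4 clusters lay 25 further rows, mostly noncoding RNAs, of which 10 had 0 reads in all libraries, among them Hotair and the microRNA genes Mir10a, Mir196a-1, Mir196a-2 and Mir615. None of the 25 passed the filter, and limma without the filter called 0 of the 15 with a read (background 1.23%), with 0 at an unadjusted p under 0.05. The most-read of them was Gm15051, named Hotairm1 by RefSeq, a noncoding RNA of the Hoxa cluster. It had 15, 35 and 38 reads in del/del females 1, 2 and 3 and 19 in del/del male 5, against 21, 4 and 14 reads in fl/fl females and 16 and 27 in fl/fl males 5 and 7. Its level was 0.277 ± 0.0971 RPM in del/del and 0.172 ± 0.0397 RPM in fl/fl libraries (SD, n = 4 and 5), and the groups overlapped (0.63 on the log2 scale, SE 0.396, limma adjusted p = 0.850). Hoxb3os had 9 reads in del/del female 2, against 1 in fl/fl female 1, and 0610040B09Rik had 8 reads in del/del female 2 alone.

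The 24 nearest neighbours, 3 on each side of each cluster, were of unlike level. Of the 24, 11 passed the filter and 13 did not. Limma called 0 of the 11 (background 1.55%) with 0 at an unadjusted p under 0.05. Their median log2 fold change was -0.03, beside -0.00 over all rows tested. Lnp, which borders Hoxd at 88.9 kb, stood at 28.5 ± 3.08 RPM in del/del and 30.6 ± 8.32 RPM in fl/fl libraries. Mtx2, on the other side of Hoxd at 60.7 kb, stood at 24.2 ± 2.53 RPM in del/del and 25.1 ± 7.74 RPM in fl/fl libraries. Skap2, 142.8 kb from Hoxa, stood at 20.2 ± 1.64 RPM in del/del and 17.6 ± 2.71 RPM in fl/fl libraries (log2 fold change 0.21, SE 0.131, limma adjusted p = 0.811). The neighbour with the smallest p was Calcoco1 near Hoxc, at 26.2 ± 1.56 RPM in del/del and 22.4 ± 2.41 RPM in fl/fl libraries (log2 fold change 0.23, SE 0.107, limma adjusted p = 0.534). Each of these levels was more than the sum of all 39 Hox genes in any library. In contrast, 6 neighbours, the homeobox genes Evx1 and Evx2 among them, had 0 reads in all libraries. Near Hoxb only Gm11537, 398.5 kb away, passed the filter, at 1.80 ± 0.303 RPM in del/del and 1.99 ± 0.304 RPM in fl/fl libraries. Skap1, also near Hoxb, averaged 0.0660 RPM in del/del and 0.0787 RPM in fl/fl libraries, and Calcoco2 there 0.0121 and 0.00191 RPM.

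Of the 18 neighbours with a read, 1 had values that did not overlap between the groups. Gm15055, named Halr1 by RefSeq, is a noncoding RNA 42.8 kb from Hoxa. It had 3, 1 and 2 reads in del/del females 1, 2 and 3 and 3 in del/del male 5, against 9, 2 and 6 reads in fl/fl females and 13 and 5 in fl/fl males 5 and 7. All del/del libraries lay below all fl/fl libraries in RPM, at 0.0249 ± 0.0132 RPM in del/del and 0.0764 ± 0.0311 RPM in fl/fl libraries (SD, n = 4 and 5). The closest were del/del female 1 (3 reads) and fl/fl male 7 (5 reads), and the gap between them was smaller than 1 read of del/del female 1. In reads the groups overlapped, since the shallow fl/fl female 2 had 2. The log2 fold change was -1.67 (SE 0.560), and the row was not called by limma without the filter (unadjusted p = 0.0127, adjusted p = 0.298). With log2(RPM + 0.1) the adjusted p was 0.231 and with voom 0.357. Groups that do not overlap occurred in 5.76% of all rows with a read. Ttll6, a tubulin-modifying enzyme beside Hoxb, had 2, 15 and 2 reads in del/del females and 8 in del/del male 5, against 0, 1 and 3 reads in fl/fl females and 1 and 0 in fl/fl males. Its log2 fold change was 1.71 (SE 0.769, limma without the filter, unadjusted p = 0.0486, adjusted p = 0.562). With voom the unadjusted p was 0.0382 and the adjusted p 0.471.

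**Figure D4:**
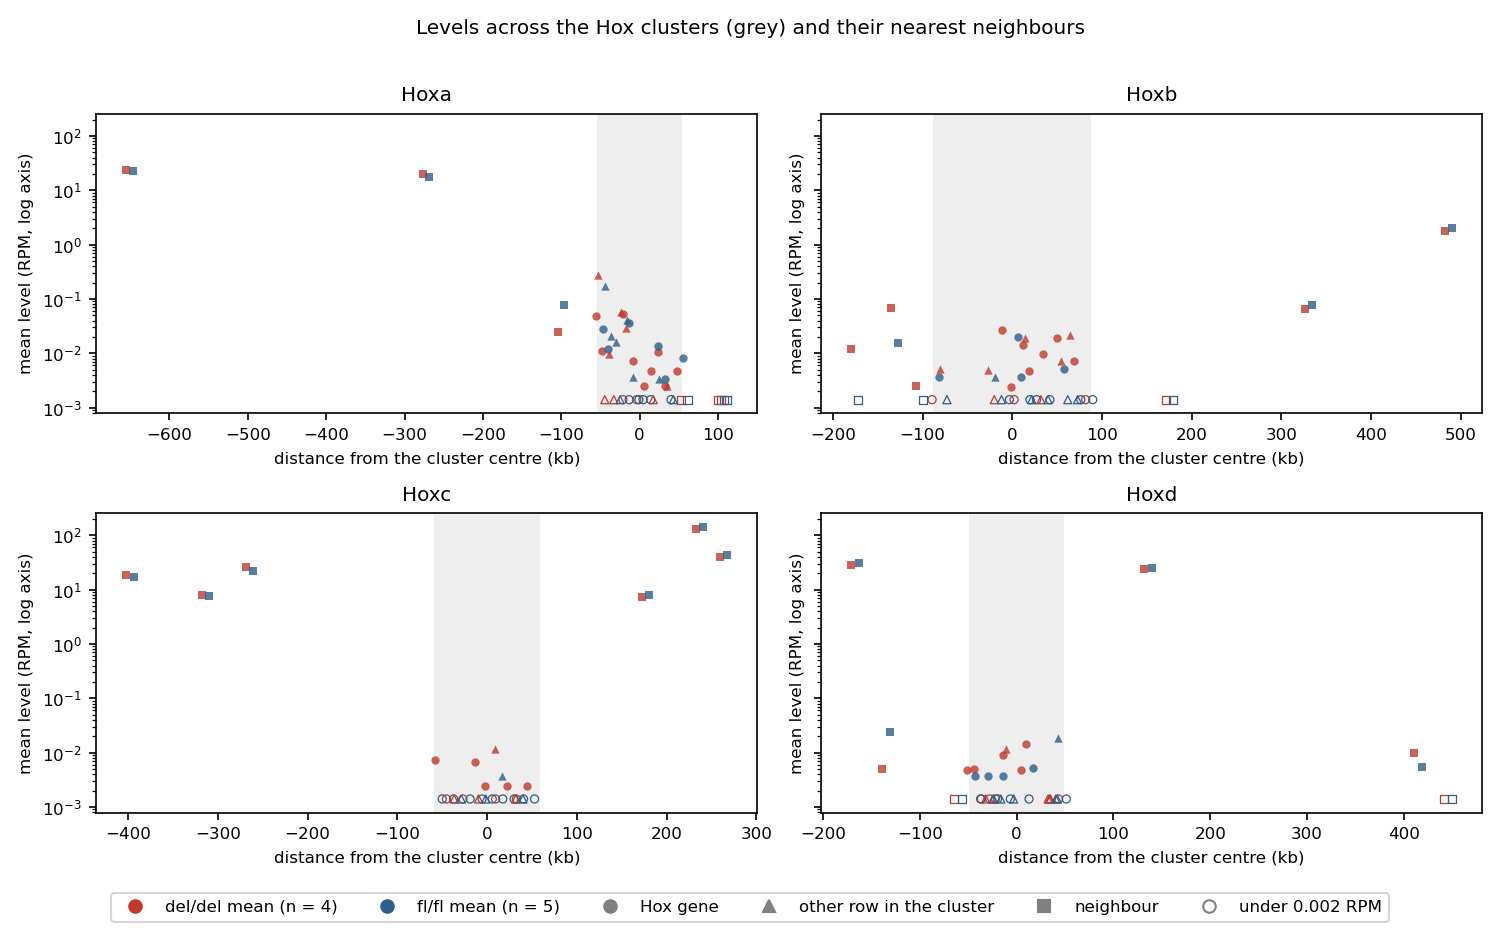
Mean level of each row (RPM, log axis) by distance from the centre of each cluster (kb), with del/del in red and fl/fl in blue. Del/del points are drawn slightly to the left of their true place and fl/fl points slightly to the right. Circles are Hox genes, triangles other rows in the cluster and squares the neighbours, and open symbols at the bottom are means under 0.002 RPM. Rows inside the shaded clusters lie under 0.3 RPM while neighbours such as Lnp, Mtx2 and Skap2 lie between 17 and 31 RPM. Other neighbours, such as Skap1 and Calcoco2 near Hoxb, lie under 0.1 RPM.

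Genes for the proteins with which Hox factors bind DNA were read in these cells. All 9 TALE homeobox cofactors (Meis, Pbx and Pknox genes) passed the filter, and limma called 0 of them (background 1.55%) with 0 at an unadjusted p under 0.05, at a median log2 fold change of -0.05. Meis2 stood at 61.7 ± 4.63 RPM in del/del and 62.3 ± 11.9 RPM in fl/fl libraries. The members with the smallest p were Pknox2 (log2 fold change -0.21, SE 0.103, limma adjusted p = 0.591), Pbx3 (-0.20, SE 0.109, adjusted p = 0.678) and Meis3 (0.22, SE 0.123, adjusted p = 0.723). Of 8 ParaHox, Evx and Cdx genes, the relatives of the Hox genes, 4 had 0 reads in all libraries (Pdx1, Cdx2, Evx1 and Evx2). The forebrain genes Gsx1 and Gsx2 alone passed the filter, and limma called 0 (background 1.55%), with 0 at an unadjusted p under 0.05. Gsx1 stood at 2.75 ± 0.240 RPM in del/del and 3.30 ± 0.999 RPM in fl/fl libraries (-0.22, SE 0.225, limma adjusted p = 0.997), and Gsx2 at 0.953 ± 0.381 RPM in del/del and 1.01 ± 0.275 RPM in fl/fl libraries (-0.07, SE 0.337, adjusted p = 0.997).

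Regional genes mark places along the same axis. Of 12 forebrain genes 6 passed the filter and limma called 0 (background 1.55%), with 0 at an unadjusted p under 0.05. Among those that did not pass, Emx1 averaged 0.131 RPM in del/del and 0.116 RPM in fl/fl libraries. Dlx1 averaged 0.104 RPM in del/del and 0.0644 RPM in fl/fl libraries, and Dlx2 0.672 and 0.335 RPM. Nkx2-1 had at most 2 reads in any library. Otx1, a forebrain and midbrain homeobox gene, stood at 17.6 ± 1.35 RPM in del/del and 16.1 ± 4.02 RPM in fl/fl libraries (log2 fold change 0.17, SE 0.178, limma adjusted p = 0.997). Lhx2, a selector gene of the cortex and eye, stood at 23.1 ± 4.90 RPM in del/del and 20.9 ± 3.44 RPM in fl/fl libraries (log2 fold change 0.13, SE 0.170, limma adjusted p = 0.997). Of 8 midbrain and hindbrain genes 5 passed the filter and limma called 0 (background 1.55%), with 1 at an unadjusted p under 0.05. Egr2 of this list stood at 29.5 ± 2.61 RPM in del/del and 28.4 ± 4.00 RPM in fl/fl libraries, above Lhx2 and Otx1. Gbx2 stood at 3.31 ± 1.69 RPM in del/del and 4.20 ± 1.83 RPM in fl/fl libraries. Irx3 stood at 1.33 ± 0.305 RPM in del/del and 0.977 ± 0.514 RPM in fl/fl libraries (log2 fold change 0.65, SE 0.442, limma adjusted p = 0.855). En2 stood at 1.29 ± 1.71 RPM in del/del and 1.46 ± 2.45 RPM in fl/fl libraries (log2 fold change 1.29, SE 1.32, adjusted p = 0.997). In Irx3 and En2 the groups overlapped, and for En2 the fitted change and the difference of the means have opposite signs. With 1 library left out, the log2 fold change of Irx3 ran from 0.25 (without fl/fl female 2) to 1.07 (without del/del male 5) and that of En2 from 0.52 (without fl/fl male 7) to 2.29 (without fl/fl female 1).

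Male line 5 differed from the other lines in regional genes in both of its cultures. En2, a midbrain and cerebellar gene, had 387 reads in del/del male 5 and 18 to 71 in the other del/del libraries, against 601 reads in fl/fl male 5 and 0 to 156 in the other fl/fl libraries. Six3, a gene of the rostral forebrain named after its values were seen, had 1722 reads in del/del male 5 and 3 to 7 in the other del/del libraries, against 1720 reads in fl/fl male 5 and 0 to 5 in the other fl/fl libraries. Otx2, a fore- and midbrain gene named likewise, had 396 reads in del/del male 5 and 246 in fl/fl male 5, and at most 16 in any other library. Hox genes had 23 reads in del/del male 5 and 8 in fl/fl male 5, and the Hox level of fl/fl male 5, 0.0763 RPM, was the lowest of all 9 libraries.

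Genes that switch Hox clusters on were also measured. Of 10 Hox activators and retinoic acid genes 7 passed the filter and limma called 0 (background 1.55%), with 1 (Cyp26b1) at an unadjusted p under 0.05 and at a median log2 fold change of -0.07. Kmt2a (listed as Mll1), the methyltransferase that keeps Hox genes active in embryos, stood at 73.3 ± 10.5 RPM in del/del and 68.2 ± 4.42 RPM in fl/fl libraries (0.10, SE 0.127, adjusted p = 0.997). Cyp26b1, which degrades retinoic acid, had 1.18, 1.34 and 1.67 RPM in del/del females and 1.26 RPM in del/del male 5, against 0.789, 0.249 and 1.06 RPM in fl/fl females and 0.886 and 0.979 RPM in fl/fl males 5 and 7. Its groups did not overlap, as in 5.76% of all rows with a read, and the difference missed the threshold by limma (log2 fold change 0.98, SE 0.432, unadjusted p = 0.0473, adjusted p = 0.494), and without fl/fl female 2 the log2 fold change was 0.54. Rarb, a retinoic acid receptor gene that retinoic acid induces, stood at 3.42 ± 1.15 RPM in del/del and 3.76 ± 0.755 RPM in fl/fl libraries (-0.19, SE 0.260, adjusted p = 0.997). Aldh1a2, which makes retinoic acid, had at most 4 reads in any library.

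Among markers of other cell types, limma called 0 in every list with a tested member (background 1.55%). At an unadjusted p under 0.05 stood 1 neuronal, 1 fibroblast, 2 endothelial and 0 microglial genes, beside 1382 of all 14044 rows. Of the 5 neuronal genes tested, 0 had a log2 fold change above 0 (median -0.30). Syp had the smallest p of them (-0.30, SE 0.112, limma unadjusted p = 0.0230, adjusted p = 0.346). Neurod1 of that list did not pass the filter and went the other way, at 0.234 RPM in del/del and 0.0698 RPM in fl/fl libraries. Thy1, of the fibroblast list and also a neuronal surface protein, stood at 18.8 ± 2.86 RPM in del/del and 11.0 ± 2.72 RPM in fl/fl libraries (0.80, SE 0.191, limma adjusted p = 0.0848). When lines were paired by a block it passed (0.78, adjusted p = 0.0110), and over all alternatives the adjusted p ran from 0.0110 to 0.507. Flt1, of the endothelial list, stood at 2.12 ± 0.960 RPM in del/del and 0.602 ± 0.277 RPM in fl/fl libraries (1.84, SE 0.466, limma adjusted p = 0.106), and it too passed with the block (2.00, adjusted p = 0.00995), with adjusted p between 0.00995 and 0.547 over all alternatives. The endothelial list summed to 3.78 to 7.95 RPM in del/del and 2.61 to 4.46 RPM in fl/fl libraries. Of its other members, Kdr stood at 3.01 ± 0.961 RPM in del/del and 2.01 ± 0.541 RPM in fl/fl libraries (log2 fold change 0.61, SE 0.269, limma unadjusted p = 0.0479, adjusted p = 0.497), Pecam1 at 0.540 ± 0.127 RPM in del/del and 0.346 ± 0.197 RPM in fl/fl libraries, and Tek at 0.512 ± 0.117 RPM in del/del and 0.474 ± 0.153 RPM in fl/fl libraries. Cdh5 had at most 4 reads in any del/del library and 8 in any fl/fl library. The microglial list summed to 100.7 to 112.6 RPM in del/del and 88.9 to 122.0 RPM in fl/fl libraries, while Aif1 and Ptprc had at most 7 reads in any library. Nearly all of that sum was the Cx3cr1 row, at 101.8 ± 5.77 RPM in del/del and 101.4 ± 12.5 RPM in fl/fl libraries. Csf1r stood at 5.57 RPM in del/del and 5.77 RPM in fl/fl libraries. The Cx3cr1 row spans chr9:119901616-120068283, and whether other genes there share its reads was not tested. The part of these genes in any Hox value was not tested.

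**Figure D5:**
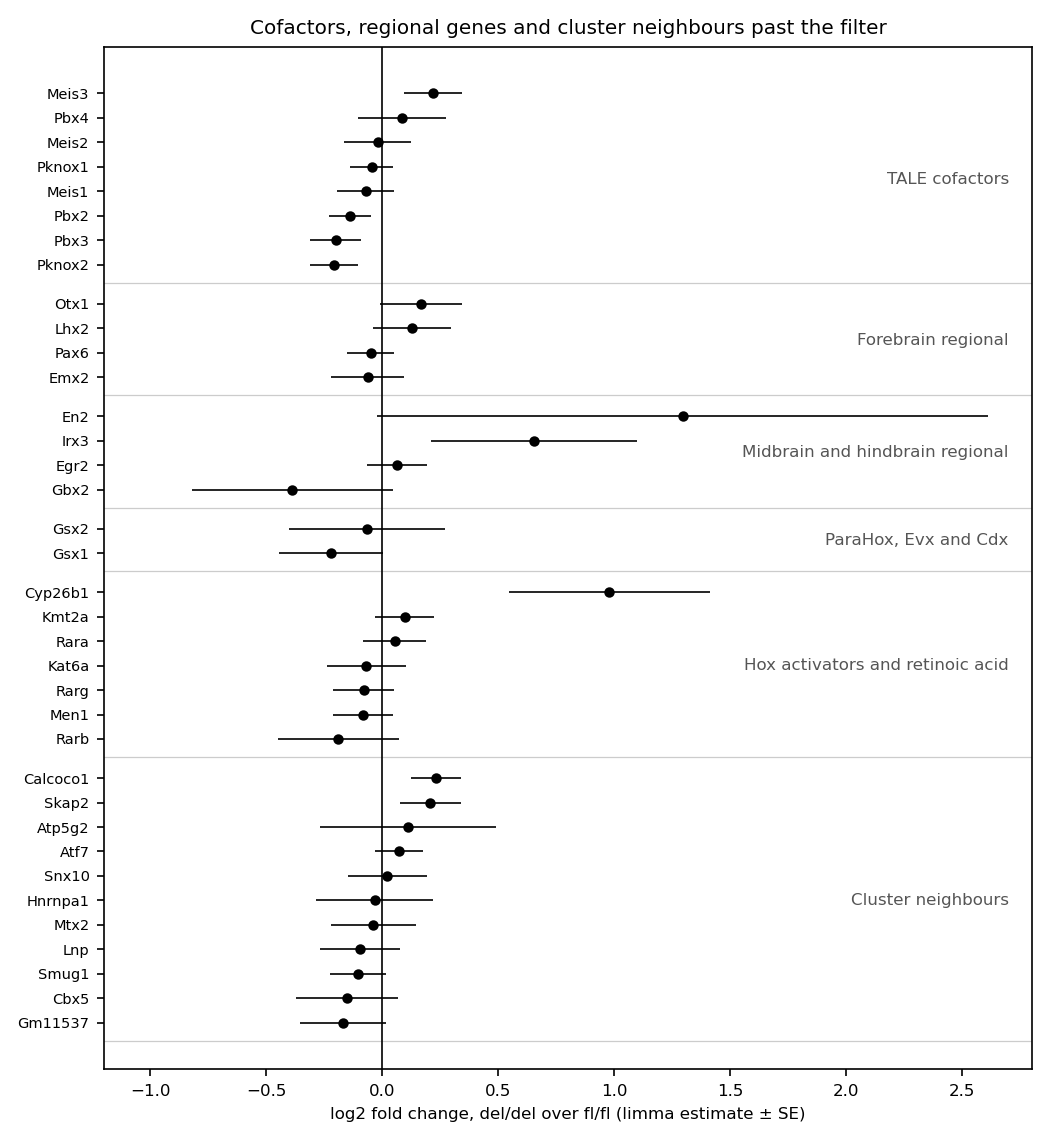
Log2 fold change, del/del over fl/fl, of cofactor, regional, ParaHox, activator and neighbour genes that passed the filter (points, limma estimate; bars, SE). Most lie within 0.4 of 0, Irx3 lies at 0.65, Cyp26b1 at 0.98 and En2 at 1.29, and none passed the threshold.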

How the data were processed

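RNA was measured in 9 libraries. The authors deposited 1 table of log2 RPM (reads per M reads) per gene and library, and the tools in the submitters' processing notes are TopHat2 2.0.12, bcl2fastq and edgeR 3.8.2, with the build mm10. How reads were counted, on which annotation and strand, is not given in the sources used here. In every library at least 99.9961% of values were whole reads (tolerance 0.05 reads), with a count of 0 entered as 0.9 reads, so reads were recovered. Rows overlap and may share reads. Reads in listed genes came to 12.9 M to 44.9 M per library.

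Groups came from the sample titles. Members and lists were chosen with earlier results of these data known. The 14044 rows that reached log2 0 (1 RPM) in 3 or more libraries were tested with limma 3.58.1 in R 4.3.3 (two-sided, intensity trend, sex as covariate, Benjamini-Hochberg adjustment over all rows tested, threshold 0.05). The sexes came from 1 model of 4 group means, whose single del/del male was taken to vary as the other groups do. No Hox row passed the filter, so the planned permutation test of single Hox genes was not run. Fits without the filter on log2(RPM + 0.1) and with voom, and sums without members that overlap a longer member, were added after seeing the data. Scripts were tested on simulated data.

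Named in each cluster are the 3 Hox genes with the highest mean RPM and those with 0 reads throughout; for each list, those that passed, or else the 3 smallest p-values; and Smchd1. Some genes within this rule are not reported here, though counts and sums hold them. Other genes were named after their values were seen.

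The growth protocol says that each line was split, so line numbers pair the libraries of lines 1, 2, 3 and 5. Across genes, which are not independent replicates, deviations of same-line female libraries from their group means correlated at 0.868, 0.582 and 0.758, while del/del female 2 with fl/fl female 3 gave 0.728. The main fit left this pairing out and took the libraries as independent, so its p-values rest on the spread between libraries of these lines. With the block for the line, p-values rest on the spread left after differences between lines are removed.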

Additional observations from a re-analysis of the deposited data

Results flagged for a closer look

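Each value here stood far from the rest of its group of 4 del/del or 5 fl/fl libraries in RPM by Dixon's test at 95%, which chance meets in about 1 of 20 groups. That rate does not hold for Hoxa9, Hoxb3 and the Hoxc sum below, where the other libraries of the group were at 0 and any read is marked. For Hoxa2 and the Hoxd sum most of the other libraries were at 0, so it cannot be relied on there. Nor does it hold for Col1a1 and Col1a2, already named because del/del female 2 stood apart in them. More groups were examined than are listed here. In del/del female 2 these were the Hoxb sum at 0.266, Hoxa3 at 0.133, Hoxa9 at 0.0190, Col1a1 at 5.77 and Col1a2 at 6.38. In fl/fl female 3 they were the Hoxc sum at 0.00911 and the Hoxd sum at 0.0729. Hoxa2 stood out at 0.0520 in fl/fl male 7 and Hoxb3 at 0.0257 in fl/fl female 1. The summed neural stem cell markers stood out at 698.5 in del/del female 1 and 1090 in fl/fl female 2, and the summed fibroblast and mesenchymal markers at 248.4 in fl/fl female 2, the shallowest library. The Hox values rest on 1 to 28 reads each.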

How the results depend on the processing

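Of the 39 Hox genes 0 were called under every setting tried, but only the settings without the filter tested any (30 genes). Silent genes in every library numbered 37, and 37 to 39 with 1 library left out. With 1 library left out, the del/del over fl/fl ratio of mean RPM ran from 0.919 to 2.29 for all Hox genes, 0.728 to 1.78 for Hoxa, 0.710 to 4.18 for Hoxb and 1.60 to 8.93 for Hoxd, the lowest value in each without del/del female 2 and the highest for Hoxd without fl/fl female 3. No ratio is given for Hoxc, which had 1 fl/fl read.

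Over all rows tested, 217 were called, against 104 after quantile normalization, 69 per M reads in listed genes, 3 in females only and 2 to 252 with 1 library left out (2 without del/del male 5, 54 without del/del female 2). With the replicate block for the line the count was 561. In the cofactor, regional, activator, neighbour and fibroblast lists 0 genes were called, against 1 with log2(RPM + 1), 1 with voom, 1 without the sex covariate, 1 with voom and no filter and 0 to 1 with 1 library left out. The replicate block called 2, Thy1 among them, and 1 with median centring (Thy1). With 1 library left out, the log2 fold change of Gsx2 ran from -0.32 to 0.14, with its sign turned without del/del female 3 (0.13) and without fl/fl female 1, and that of Rarb from -0.35 to 0.038, turned without del/del female 1. The cause was not tested. Smchd1 missed the threshold in females only (-1.24) and within the 6 RNA- libraries (-1.25). Depth limits the Hox values: 3 reads equal 0.124 RPM in fl/fl female 2 and 0.0257 to 0.0405 RPM in the others.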
